A study of Mus musculus with 8 samples.

Results

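The genes described here are the Wnt signalling genes of the parietal bone, a flat bone at the top of the skull, in mouse pups. They were chosen by name: every entry of the count table that starts with Wnt, Fzd, Sfrp, Dkk or Rspo followed by a digit, and 21 further genes. These are the co-receptors Lrp4, Lrp5, Lrp6 and Ror2, the R-spondin receptors Lgr5 and Lgr6 with the ligases Rnf43 and Znrf3, the inhibitors Wif1, Notum, Sostdc1, Kremen1 and Kremen2, the transducers Ctnnb1, Axin1, Tcf7 and Lef1, and the feedback targets Axin2, Nkd1, Nkd2 and Sp5. The rule takes 63 of the 27133 entries. One of them, Fzd10os, is an RNA antisense to Fzd10. The bone came from C57BL6J pups dosed with antibody transcranially at postnatal days 2, 4 and 6, then perfused and collected on postnatal day 9. The control group received an isotype antibody (4 libraries, isotype 2 to 5) and the other group an antibody that blocks CSF1R, the receptor that macrophages and osteoclasts need, given to remove myeloid cells (4 libraries, anti-CSF1R 7 to 10). The titles number the libraries separately with the prefix ms, which may stand for 1 mouse each. No label says so, and if it does not, the p-values reflect differences among libraries that may be technical.

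Total counts ran from 57496279 to 69118931 per library. Levels are given as CPM, counts scaled to library size with TMM factors, with 4 libraries in each group. Csf1r itself stood at 238 to 549 CPM under isotype and at 39.4 to 64.4 CPM under anti-CSF1R. The osteoblast markers, 11 genes with all of them above 0 in every library, summed to between 108623 and 164401 CPM under isotype. Under anti-CSF1R they summed to between 95476 and 112231 CPM. Of the 11, 8 had log2 fold changes (anti-CSF1R minus isotype) below 0 and 3 above, with a median of -0.45. Osteoclast markers, 9 genes, summed to 5579 to 13258 CPM under isotype and 2044 to 2791 CPM under anti-CSF1R, and all 9 had log2 fold changes below 0. Macrophage markers, 8 genes, summed to 470 to 949 and 113 to 171 CPM. These 8 include Csf1r, so their sum is not separate from the Csf1r values above. Of the 8, 7 had log2 fold changes below 0 and 1 above, at 0.54. Isotype 3 and 4 stood apart from the other 6 libraries, with a Spearman correlation across genes of 0.916 to 0.943 against 0.986 to 0.997 among those 6. The genes were therefore also tested with isotype 2 and 5 as the only controls, and with an offset for GC content and transcript length. The median log2 fold change of the osteoblast markers was 0.05 with isotype 2 and 5 as the only controls and -0.04 with the offset.

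Wnt proteins are secreted lipid-modified ligands that bind a frizzled receptor together with the co-receptor LRP5 or LRP6. In the canonical branch this stops the destruction of β-catenin, which enters the nucleus and acts with TCF and LEF factors on target genes. Canonical signalling drives osteoblast formation and bone gain, secreted inhibitors such as sclerostin, DKK1 and WIF1 restrain it, and non-canonical branches such as WNT5A with ROR2 act without β-catenin.

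The promoters of 4 genes are shown because these 4 passed the test with isotype 2 and 5 as controls (Wif1, Fzd5, Wnt9a and Sfrp2), together with that of Dkk1, a known target of canonical signalling. The sequences are from RefSeq (GRCm38.p6), matched by gene symbol, and hold 250 bases before and 50 bases after the annotated start, read in the direction of the gene. The submitters' notes name both GRCm38 and GRCm39, so the build behind the counts is not settled here. The windows lie at chr10:121033754-121034053 (plus strand, Wif1), chr1:64737701-64738000 (minus strand, Fzd5), chr11:59306680-59306979 (plus strand, Wnt9a), chr3:83766071-83766370 (plus strand, Sfrp2) and chr19:30549447-30549746 (minus strand, Dkk1). Capitals mark a match to 1 of 4 heptamers of the TCF/LEF type (CTTTGAA with its variant CTTTGAT, or CTTTGTA with its variant CTTTGTT), searched on both strands, none of which can overlap another on the same strand.
Wif1: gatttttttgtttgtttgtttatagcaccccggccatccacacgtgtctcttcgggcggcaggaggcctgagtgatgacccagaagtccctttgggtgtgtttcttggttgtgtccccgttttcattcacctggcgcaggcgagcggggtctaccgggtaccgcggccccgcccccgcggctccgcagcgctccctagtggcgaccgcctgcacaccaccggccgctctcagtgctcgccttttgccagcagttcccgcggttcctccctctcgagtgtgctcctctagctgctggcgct
Fzd5: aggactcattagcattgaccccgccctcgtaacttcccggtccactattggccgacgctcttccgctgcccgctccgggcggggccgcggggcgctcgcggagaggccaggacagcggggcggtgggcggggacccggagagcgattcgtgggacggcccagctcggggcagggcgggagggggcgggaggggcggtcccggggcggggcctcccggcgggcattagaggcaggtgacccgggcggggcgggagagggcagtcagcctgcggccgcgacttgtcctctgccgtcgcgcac
Wnt9a: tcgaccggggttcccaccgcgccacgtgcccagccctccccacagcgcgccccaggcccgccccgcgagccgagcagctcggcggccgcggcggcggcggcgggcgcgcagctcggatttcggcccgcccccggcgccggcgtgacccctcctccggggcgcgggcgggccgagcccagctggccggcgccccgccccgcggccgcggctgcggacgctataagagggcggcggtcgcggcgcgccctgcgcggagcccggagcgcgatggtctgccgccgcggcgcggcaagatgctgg
Sfrp2: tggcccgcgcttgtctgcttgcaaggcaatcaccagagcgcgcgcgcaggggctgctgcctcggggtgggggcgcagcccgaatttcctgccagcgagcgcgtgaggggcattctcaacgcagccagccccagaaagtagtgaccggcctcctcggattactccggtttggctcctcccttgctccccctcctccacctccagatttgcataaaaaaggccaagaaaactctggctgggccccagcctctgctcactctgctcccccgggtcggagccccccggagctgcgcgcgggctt
Dkk1: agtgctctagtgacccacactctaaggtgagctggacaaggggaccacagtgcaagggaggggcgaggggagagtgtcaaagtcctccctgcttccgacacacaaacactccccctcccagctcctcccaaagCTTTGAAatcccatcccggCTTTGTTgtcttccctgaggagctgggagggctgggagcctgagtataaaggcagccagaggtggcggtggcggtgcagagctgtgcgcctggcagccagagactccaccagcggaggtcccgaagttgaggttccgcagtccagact
Only the Dkk1 window among these 5 held a match, CTTTGAA at bases 134 to 140 and CTTTGTT at bases 153 to 159. RefSeq windows were found for 39 of the 63 genes, 48 windows in all. A match stood in 7 of these 48 windows (14.6%), against 16.9% of all 32851 promoter windows. The 7 genes with a match were Dkk1, Fzd7, Lef1, Sp5, Wnt11, Wnt3 and Wnt5b, named after the scan was seen. Of the feedback targets, Sp5 had a match, and the windows of Axin2, Nkd1 and Nkd2 held none. The absence of these letters from a window of this length says nothing about binding elsewhere. GC content was 63.0% in the Wif1 window, 75.7% in Fzd5, 83.3% in Wnt9a, 66.0% in Sfrp2 and 60.7% in Dkk1.

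Secreted inhibitors and β-catenin had the highest levels. Compared per length (CPM per kb of the longest GENCODE M21 transcript, mean over 8 libraries), Wif1 was highest of the 51 tested genes with a length, at 430 CPM per kb and 274 to 624 across libraries. Ctnnb1, the gene of β-catenin, followed at 318 CPM per kb, with a range of 170 to 389 that overlapped that of Wif1. Dkk1, the Dickkopf inhibitor that binds LRP5 and LRP6, stood at 111 CPM per kb (74.7 to 133). Sfrp2, a secreted frizzled-related protein that binds Wnt ligands, stood at 63.0 CPM per kb (34.8 to 125). The next secreted inhibitors in order were Dkk3, Sfrp4 and Notum at 35.1, 28.9 and 16.9 CPM per kb.

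Among the ligands, Wnt10b, which promotes bone formation in mice, and Wnt5b, a mostly non-canonical ligand, led at 34.1 and 28.7 CPM per kb. Their ranges overlapped (24.8 to 44.0 and 22.6 to 40.0 CPM per kb). Wnt1, Wnt9a, Wnt2b and Wnt5a followed at 6.12, 5.63, 4.91 and 3.99 CPM per kb, and no library had any of these above 7.72 CPM per kb. Fzd1 was the highest of the frizzled receptors at 14.7 CPM per kb, ahead of Fzd5, Fzd7 and Fzd2 at 9.74, 7.76 and 6.62 CPM per kb. Of the R-spondins, the secreted amplifiers of Wnt signalling, Rspo3 was highest at 1.73 CPM per kb. The feedback genes Nkd2, Nkd1 and Axin2 stood at 3.95, 2.27 and 2.03 CPM per kb.

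**Figure D1:**
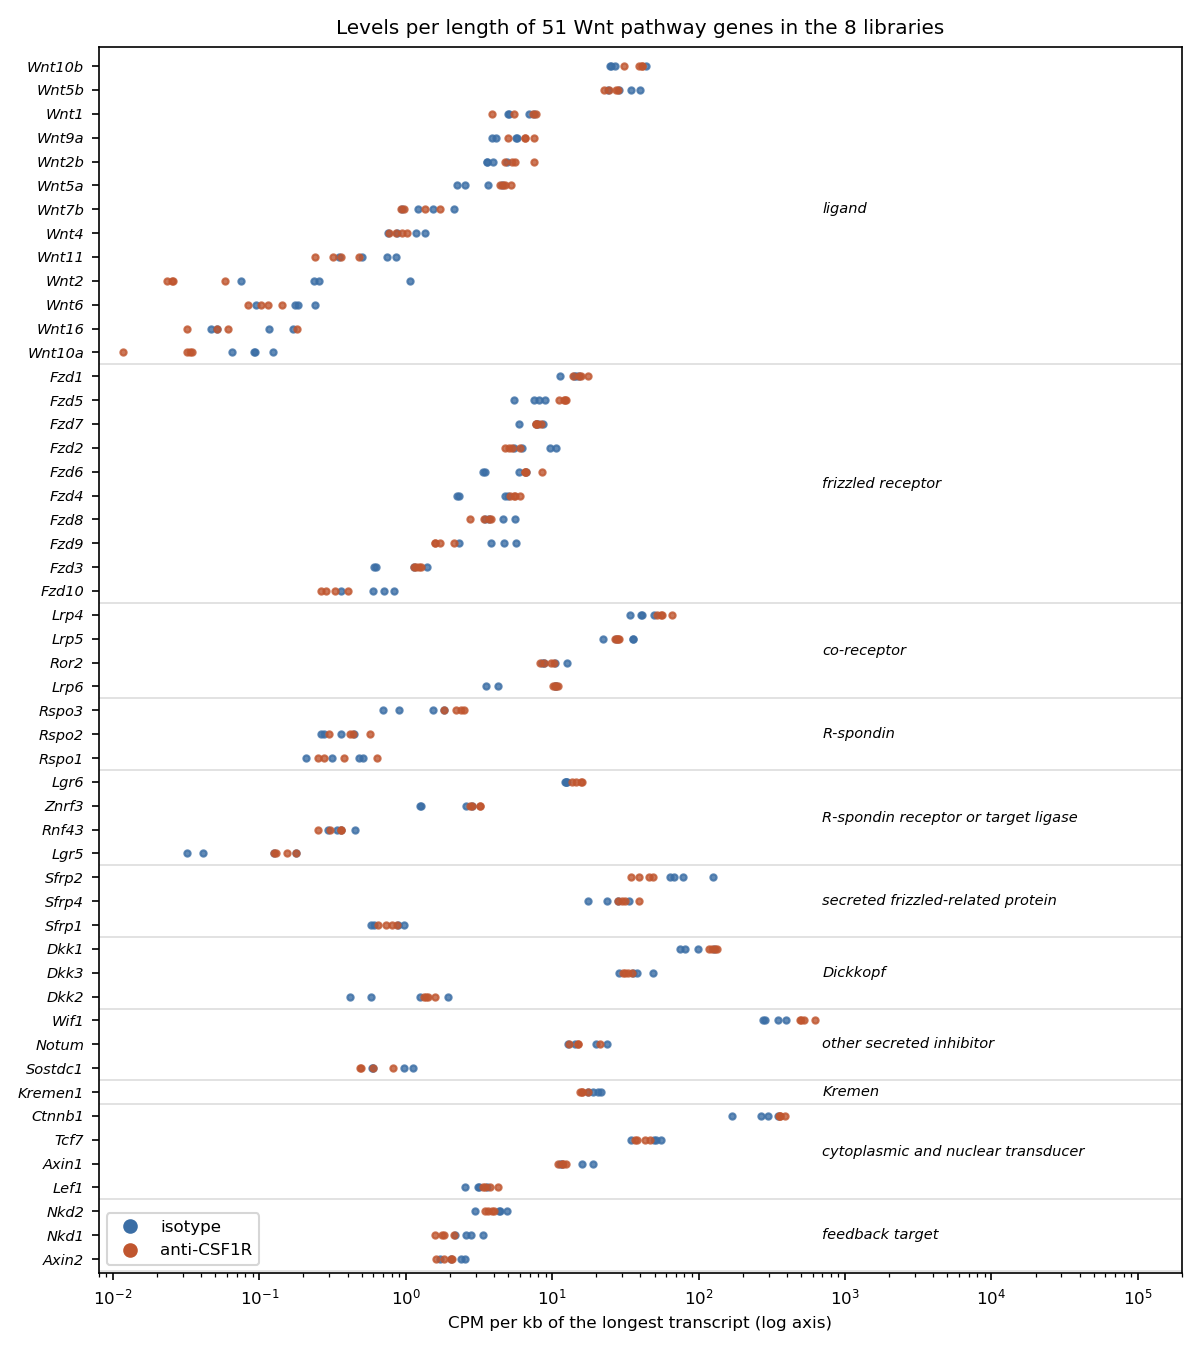
Level of 51 Wnt signalling genes, by class, as CPM per kb of the longest transcript on a log axis; each point is 1 library, blue for isotype and orange for anti-CSF1R (n = 4 each). Wif1 and Ctnnb1 sit farthest to the right, at means of 430 and 318 CPM per kb, and Wnt10b and Wnt5b lead the ligands.

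A filter on low counts left 52 of the 63 genes for testing. The other 11 were Dkk4, Kremen2, Rspo4, Sfrp5, Sp5, Wnt3, Wnt3a, Wnt7a, Wnt8a, Wnt8b and Wnt9b. None of them exceeded 26 counts in a library, or 0.368 CPM. Wnt7a had 0 counts in all 8 libraries. The limit that such a count allows, 3 independent counts, corresponds to 0.0396 to 0.0573 CPM (counting error only). Most low counts here were even, the pattern of counting each mate of a read pair, so the limit is higher than that. These 11 genes were not tested in the comparison of all 8 libraries. Rspo4 and Sfrp5 were given an adjusted p by DESeq2, 0.957 and 0.404, within ranges of 0.779 to 0.985 over 8 alternatives and 0.404 to 0.457 over 2.

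No Wnt signalling gene passed the test on all 8 libraries. In edgeR's quasi-likelihood test with Benjamini-Hochberg adjustment over all genes, 0 of 52 had an adjusted p under 0.05, and the lowest adjusted p was 0.0845 (Fzd9). Over all 17028 genes tested, 0.846% were called. At an unadjusted p under 0.05 there were 16 of the 52 genes (30.8%), 7 higher and 9 lower, against 17.9% of all genes tested. The 9 lower genes include Wnt2 and Wnt10a, which passed the filter on low counts only through the isotype group and could only be lower. They also include Fzd10 and Fzd10os, whose reads cannot be told apart, so nothing is read from the excess over all genes. By limma-voom 0 of 52 were called, against 0.84% of all genes. By DESeq2, which gave 54 of the genes an adjusted p, 2 were higher (Fzd5 and Wif1), against 0.718% of all genes. With the same tool 4 were lower (Sfrp2, Fzd9, Fzd10 and Wnt2), against 3.3%. Wnt2 had only 4 to 8 counts in the anti-CSF1R libraries, so nothing is read from its place among these. The median absolute log2 fold change (anti-CSF1R minus isotype, below log2 change) was 0.37 over the 52 genes and 0.39 over all genes tested. The signed medians were -0.06 and 0.03.

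With isotype 2 and 5 as the only controls, 4 of 53 tested Wnt genes passed. Wif1, Fzd5 and Wnt9a were higher with anti-CSF1R, against 0.679% of all genes called higher in that comparison, and Sfrp2 was lower, against 2.38% called lower. With the GC and length offset on all 8 libraries, Wif1, Fzd5 and Wnt9a again passed as higher, against 0.493% of all genes, and 0 of 52 were lower, against 2.16%. The groups did not overlap, with every anti-CSF1R library higher, for Wif1, Fzd5, Fzd4, Lrp4, Lgr6 and Ctnnb1, which is 6 of 52 (11.5%) against 6.61% of all genes tested. Every anti-CSF1R library was lower for Sfrp2, Fzd9, Wnt2, Wnt10a and Nkd1, which is 5 of 52 (9.62%) against 8.34%. Of these 5, Wnt2 and Wnt10a passed the filter on low counts only through the isotype group, where they are high, so they could only be lower and nothing is read from their place in this count. In RNA from whole bone, fewer cells of a type and less RNA per cell cannot be told apart.

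**Figure D2:**
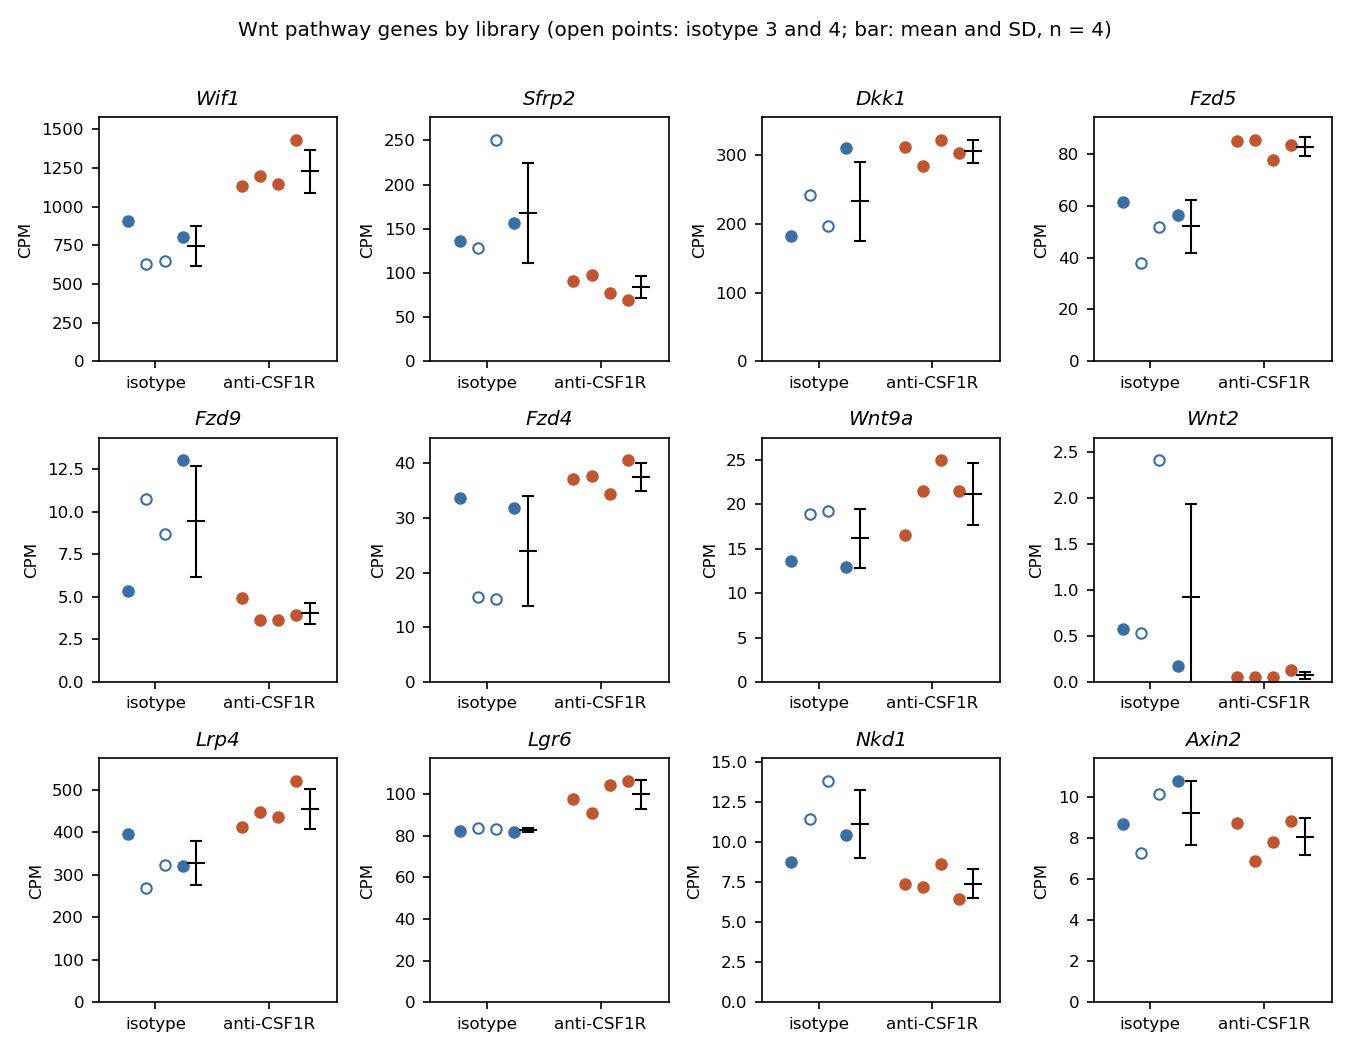
CPM of 12 Wnt signalling genes in each library, with the mean and SD of each group beside the points (n = 4; the lower SD limit of Wnt2 is cut at 0). Open points are isotype 3 and 4. Wif1, Fzd5, Fzd4, Lrp4 and Lgr6 are higher in every anti-CSF1R library than in any isotype library, Sfrp2, Fzd9, Wnt2 and Nkd1 are lower, and Dkk1, Wnt9a and Axin2 overlap.

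Among the ligands, Wnt9a, known from joint formation, differed between the groups only under some choices of controls or correction. It measured 13.7, 18.9, 19.2 and 13.0 CPM across the controls (isotype 2 to 5 in order) against 16.6, 21.6, 24.98 and 21.6 CPM across the treated libraries (7 to 10). The groups overlapped because isotype 3 and 4 exceeded anti-CSF1R 7, and isotype 2 and 5 lay below all 4 anti-CSF1R libraries. On all libraries the log2 change was 0.39 ± 0.20 (SE, edgeR adjusted p = 0.286). Against isotype 2 and 5 alone Wnt9a rose by 0.67 ± 0.15 (edgeR adjusted p = 0.0485), and with the offset by 0.67 (0.0346). Adjusted p-values spanned 0.0346 to 0.486 over 16 alternatives.

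Wnt2 and Wnt10a had few counts and entered the test only through the isotype libraries, so their lower values under anti-CSF1R are given as a description. Wnt2 had 36, 28, 146 and 12 counts in isotype 2 to 5 and 4, 4, 4 and 8 counts in anti-CSF1R 7 to 10. Isotype 4 alone held 2.41 CPM of it, against 0.170 to 0.575 CPM in the other isotype libraries. On the log2 scale the change was -3.62 ± 0.83 on all libraries (edgeR adjusted p = 0.0975) and -2.51 without isotype 4 (0.137). Without isotype 5 its adjusted p fell below the threshold, at -3.97 (edgeR adjusted p = 0.0402), and adjusted p-values spanned 1.63e-04 to 0.312 over 14 alternatives. Because Wnt2 could only be lower, nothing is read from its passing. Wnt10a had 10 to 16 counts with isotype and 2 to 6 counts with anti-CSF1R, a log2 change of -1.71 ± 0.42 (edgeR adjusted p = 0.117).

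The abundant ligands did not pass. Wnt10b measured 68.5, 72.2, 67.1 and 119 CPM across the controls (isotype 2 to 5 in order) against 111, 83.9, 106 and 111 CPM across the treated libraries (7 to 10). Isotype 5 was the highest of all 8 libraries, and the other isotype libraries lay below every anti-CSF1R library (log2 change 0.33 ± 0.21, edgeR adjusted p = 0.321). The value was 0.13 against isotype 2 and 5 alone and 0.57 without isotype 5. Wnt5b stood at 75.1 ± 16.7 CPM (SD) with isotype and 60.9 ± 6.13 CPM under anti-CSF1R (log2 change -0.30 ± 0.18, edgeR adjusted p = 0.309). That value was -0.03 against isotype 2 and 5 alone. The other 8 tested ligands had log2 changes from -0.81 (Wnt11) to 0.56 (Wnt5a). Against isotype 2 and 5 alone Wnt11 had -0.30 and Wnt5a 0.22, and the range ran from -0.33 (Wnt6) to 0.38 (Wnt2b). Porcn, the acyltransferase that lipid-modifies Wnt ligands, is not in the rule. It was named after its values were seen, as the 1 gene of the transduction list to pass in any of these comparisons. Porcn stood at 25.1, 38.8, 27.0 and 27.3 CPM under isotype and at 35.1 ± 1.68 CPM under anti-CSF1R. It had a log2 change of 0.25 on all libraries (edgeR adjusted p = 0.333), 0.42 against isotype 2 and 5 alone (0.0129) and 0.54 with the offset (0.0284), and adjusted p-values spanned 0.0129 to 0.586 over 16 alternatives.

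The frizzled receptors did not move as a class. Of 11 entries, with the antisense RNA Fzd10os included, 6 had log2 changes above 0 and 5 below, from -1.23 (Fzd9) to 0.67 (Fzd5). The 5 below hold both Fzd10 and Fzd10os, whose reads cannot be told apart. Fzd5 measured 61.6, 37.8, 51.9 and 56.6 CPM across the controls (isotype 2 to 5 in order) against 84.7, 85.4, 77.4 and 83.3 CPM across the treated libraries (7 to 10). Each anti-CSF1R library lay above all isotype libraries, and isotype 3 was the lowest. On the log2 scale the change was 0.67 ± 0.17 on all libraries (edgeR adjusted p = 0.126). Fzd5 rose by 0.48 ± 0.07 against isotype 2 and 5 alone (edgeR adjusted p = 0.00433) and by 0.63 with the offset (0.0484), and adjusted p-values spanned 0.00433 to 0.369 over 16 alternatives.

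Fzd9, a receptor whose loss lowers bone formation in mice, measured 5.33, 10.7, 8.72 and 13.0 CPM across the controls (isotype 2 to 5 in order) against 4.93, 3.63, 3.63 and 3.91 CPM across the treated libraries (7 to 10). Isotype 2 was close to anti-CSF1R 7 and the other isotype libraries were well above. On the log2 scale the change was -1.23 ± 0.27 (edgeR adjusted p = 0.0845), and -1.19 ± 0.33 against isotype 2 and 5 alone (0.134). Without isotype 2 Fzd9 fell by 1.45 on the log2 scale (edgeR adjusted p = 0.0202), and adjusted p-values spanned 7.72e-04 to 0.280 over 16 alternatives. Cartilage markers also varied among these libraries. The 8 genes summed to 434, 589, 906 and 2952 CPM in isotype 2 to 5 and to 149 to 457 CPM in anti-CSF1R. Both Fzd9 and this sum were highest in isotype 5 and lowest, among controls, in isotype 2. The other orders differed, as isotype 3 was above isotype 4 for Fzd9 but below it for the sum. Anti-CSF1R 10 had the lowest sum but not the lowest Fzd9 value. None of the 8 markers was at 0 in any library and 0 of 8 passed the edgeR test. Of the 8, 7 had log2 changes below 0 and 1 above, at 0.73. At an unadjusted p under 0.05 there were 5, 4 lower and 1 higher, against 17.9% of all genes tested. By DESeq2 3 were lower, against 3.3%. Their part in the Fzd9 values was not tested.

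Fzd4, the receptor of norrin in endothelium, stood at 33.6, 15.6, 15.1 and 31.8 CPM under isotype and at 34.4 to 40.6 CPM under anti-CSF1R. Isotype 3 and 4 were far below every other library, and isotype 2 lay just under anti-CSF1R 9. The log2 change went from 0.64 ± 0.28 (edgeR adjusted p = 0.278) to 0.19 ± 0.07 against isotype 2 and 5 alone and 0.34 with the offset. Endothelial markers, 6 genes, summed to 498 to 537 CPM under isotype and 576 to 656 CPM under anti-CSF1R without overlap. Of the 6, none was at 0 in any library, and 4 were higher in every anti-CSF1R library, against 6.61% of all genes tested. The other 2 had log2 changes below 0, down to -0.34. In the edgeR test on all libraries 0 passed, and 2 had an unadjusted p under 0.05, against 17.9% of all genes. By DESeq2 0 passed, and 1 was higher against isotype 2 and 5 alone, where 0.679% of all genes were. Their part in the Fzd4, Fzd5 and Wif1 values was not tested.

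Fzd10 stood at 1.18 to 2.71 CPM under isotype and 0.851 to 1.30 CPM under anti-CSF1R. Fzd10os, the antisense RNA, had means of 1.48 ± 0.271 and 0.904 ± 0.215 CPM. The strand setting of the counting is unknown here, so reads of this pair cannot be told apart (log2 changes -0.97 and -0.70, edgeR adjusted p = 0.196 and 0.270). Fzd1 stood at 57.7 ± 7.24 CPM under isotype and 65.5 ± 6.24 CPM under anti-CSF1R (edgeR adjusted p = 0.389).

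Lrp4, which anchors sclerostin at the osteoblast surface, was the co-receptor class member whose groups did not overlap. It measured 395, 270, 323 and 321 CPM across the controls (isotype 2 to 5 in order) against 413, 448, 435 and 521 CPM across the treated libraries (7 to 10). On the log2 scale the change was 0.48 ± 0.16 (edgeR adjusted p = 0.263), and 0.34 ± 0.11 against isotype 2 and 5 alone. Lrp6 measured 97.3, 39.9, 33.3 and 99.1 CPM across the controls (isotype 2 to 5 in order) against 94.4 to 102 CPM across the treated libraries. Only isotype 3 and 4 stood below the rest. The log2 change of Lrp6 was 0.55 ± 0.35 on all libraries (edgeR adjusted p = 0.320) and 0.0025 ± 0.058 against isotype 2 and 5 alone. Lrp5, the co-receptor whose mutations set human bone mass, stood at 269 ± 59.2 CPM under isotype and 247 ± 5.81 CPM under anti-CSF1R (-0.12 ± 0.18, edgeR adjusted p = 0.630). Its sign turned against isotype 2 and 5 alone (0.17 ± 0.08).

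Lgr6, a receptor of R-spondins, had no overlap between the groups. It measured 82.3, 83.6, 83.4 and 81.6 CPM across the controls (isotype 2 to 5 in order) against 97.5, 91.0, 104 and 106 CPM across the treated libraries (7 to 10). All 4 anti-CSF1R libraries lay above the controls, which were close to one another. The log2 change was 0.27 ± 0.12 (edgeR adjusted p = 0.278), 0.28 ± 0.07 against isotype 2 and 5 alone (0.0747) and 0.23 with the offset (0.184), and it passed in 0 of 16 alternatives, with adjusted p-values of 0.0747 to 0.486. Rspo3 stood at 4.76, 2.79, 2.15 and 5.67 CPM under isotype and at 7.68, 7.37, 6.75 and 5.61 CPM under anti-CSF1R. Isotype 5 lay just above anti-CSF1R 10 (log2 change 0.83 ± 0.30, edgeR adjusted p = 0.277, and 0.39 against isotype 2 and 5 alone). Rspo2 had 0.35 ± 0.27 (edgeR adjusted p = 0.370), and 0.09 against isotype 2 and 5 alone. Znrf3, a ubiquitin ligase that removes frizzled receptors, stood at 16.2, 8.02, 7.88 and 18.0 CPM under isotype and 17.4 to 20.2 CPM under anti-CSF1R. Its log2 change went from 0.59 ± 0.29 (edgeR adjusted p = 0.282) to 0.14 ± 0.09 against isotype 2 and 5 alone.

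The secreted inhibitors went in both directions. Wif1, which binds Wnt ligands outside the cell, measured 905, 628, 651 and 801 CPM across the controls (isotype 2 to 5 in order) against 1135, 1197, 1148 and 1432 CPM across the treated libraries (7 to 10). The highest control, isotype 2, lay below every anti-CSF1R library. Group means were 746 ± 131 and 1228 ± 139 CPM, a 1.65-fold difference. The log2 change was 0.72 ± 0.18 on all libraries (edgeR adjusted p = 0.117). Wif1 rose by 0.52 ± 0.11 against isotype 2 and 5 alone (edgeR adjusted p = 0.0361) and by 0.80 with the offset (0.0412), and adjusted p-values spanned 0.00415 to 0.379 over 16 alternatives.

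Sfrp2 measured 136, 128, 251 and 157 CPM across the controls (isotype 2 to 5 in order) against 91.1, 97.8, 77.8 and 69.6 CPM across the treated libraries (7 to 10). Isotype 4 was the highest library, and the lowest control, isotype 3, lay above all anti-CSF1R libraries. Group means were 168 ± 56.5 and 84.1 ± 12.7 CPM (edgeR adjusted p = 0.107), with a log2 change of -0.75 without isotype 4 (0.162). Against isotype 2 and 5 alone Sfrp2 fell by 0.80 ± 0.14 on the log2 scale (edgeR adjusted p = 0.0242), and with the offset the value was -0.74 (0.119), and adjusted p-values spanned 0.00294 to 0.331 over 16 alternatives. Its relative Sfrp4 stood at 104 ± 27.1 and 130 ± 18.8 CPM (0.32 ± 0.21, edgeR adjusted p = 0.322). Against isotype 2 and 5 alone the Sfrp4 value was 0.06, and with the offset -0.042. Fibroblast markers of dura and arachnoid, 7 genes, summed to 56.2 to 77.3 CPM under isotype and 80.6 to 85.7 CPM under anti-CSF1R, without overlap. Slc22a6 and Slc6a13 were at 0 in at least 1 library. Of the 5 tested markers, 4 had log2 changes above 0 and 1 below, at -1.33, and 0 passed edgeR on all libraries. In every anti-CSF1R library 1 was higher and 1 lower, against 6.61% and 8.34% of all genes tested. At an unadjusted p under 0.05 there were 2, against 17.9%, and by DESeq2 1 was lower, against 3.3%. Against isotype 2 and 5 alone 1 was lower, as were 2.38% of all genes. Their part in the values of the secreted inhibitors was not tested.

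Dkk1 measured 181, 241, 196 and 310 CPM across the controls (isotype 2 to 5 in order) against 312, 284, 322 and 302 CPM across the treated libraries (7 to 10). Isotype 5 lay within the anti-CSF1R range and the other controls below it (log2 change 0.39 ± 0.19, edgeR adjusted p = 0.281, 0.31 ± 0.20 against isotype 2 and 5 alone, and 0.19 with the offset). Markers of osteocytes, which are among the cells that make Dkk1, summed to 4267, 2965, 2934 and 6103 CPM in isotype 2 to 5. Under anti-CSF1R they summed to 4141 to 5224 CPM. Isotype 5 was the highest control for Dkk1 and for this sum. Among the other controls the orders differed, as isotype 2 was lowest for Dkk1 but above isotype 3 and 4 for the sum. None of the 5 osteocyte markers was at 0 in any library and 0 of 5 passed edgeR or DESeq2. At an unadjusted p under 0.05 there was 1, against 17.9% of all genes tested. Their part in the Dkk1 values was not tested. Dkk3, a divergent Dickkopf, stood at 127 ± 28.1 and 109 ± 6.93 CPM (-0.22 ± 0.17, edgeR adjusted p = 0.381, and -0.38 against isotype 2 and 5 alone). Notum, the enzyme that strips the lipid from Wnt ligands, stood at 31.8, 52.6, 44.1 and 28.5 CPM under isotype and 28.6 to 46.7 CPM under anti-CSF1R (-0.15 ± 0.24, edgeR adjusted p = 0.654, and 0.23 against isotype 2 and 5 alone). Sostdc1 had -0.45 ± 0.29 (edgeR adjusted p = 0.323), and -0.28 without isotype 4. Kremen1, a receptor of DKK1, stood at 95.6 ± 8.55 and 78.8 ± 4.81 CPM (-0.28 ± 0.13, edgeR adjusted p = 0.278, and -0.18 against isotype 2 and 5 alone).

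None of the 3 tested feedback targets, Axin2, Nkd1 and Nkd2, passed on all libraries, against isotype 2 and 5 alone, with the offset or by DESeq2. Axin2, the usual readout of β-catenin activity, measured 8.65, 7.25, 10.1 and 10.8 CPM across the controls (isotype 2 to 5 in order) against 8.73, 6.89, 7.79 and 8.81 CPM across the treated libraries (7 to 10). Isotype 2 and 3 lay within the anti-CSF1R range, and isotype 4 and 5 above it. The log2 change was -0.19 ± 0.18 (edgeR adjusted p = 0.442), -0.27 ± 0.14 against isotype 2 and 5 alone (0.393) and -0.04 with the offset (0.906), with a range of 0.329 to 0.906 over 16 alternatives. Nkd1, a feedback inhibitor that binds Dishevelled, stood at 8.78, 11.5, 13.8 and 10.4 CPM under isotype and at 7.40, 7.18, 8.65 and 6.44 CPM under anti-CSF1R. Isotype 2 and anti-CSF1R 9 were nearly level, and the log2 change was -0.58 ± 0.18 (edgeR adjusted p = 0.234), and -0.38 ± 0.14 against isotype 2 and 5 alone. Nkd2 had -0.15 ± 0.18 (edgeR adjusted p = 0.552), and -0.07 against isotype 2 and 5 alone.

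Ctnnb1 measured 1264, 617, 966 and 1070 CPM across the controls (isotype 2 to 5 in order) against 1312, 1304, 1273 and 1408 CPM across the treated libraries (7 to 10). Isotype 2 was nearly level with anti-CSF1R 9, and the log2 change went from 0.44 ± 0.22 (edgeR adjusted p = 0.285) to 0.18 ± 0.09 against isotype 2 and 5 alone. The RNA does not measure the stability of the protein. Tcf7 and Lef1, transcription factors that partner β-catenin, had values of -0.21 ± 0.18 and 0.26 ± 0.16 on the log2 scale (edgeR adjusted p = 0.408 and 0.315). Against isotype 2 and 5 alone these were -0.03 and 0.14. The 22 tested genes outside the rule for named genes had log2 changes from -0.97 to 0.63 and adjusted p-values from 0.196 to 0.990.

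**Figure D3:**
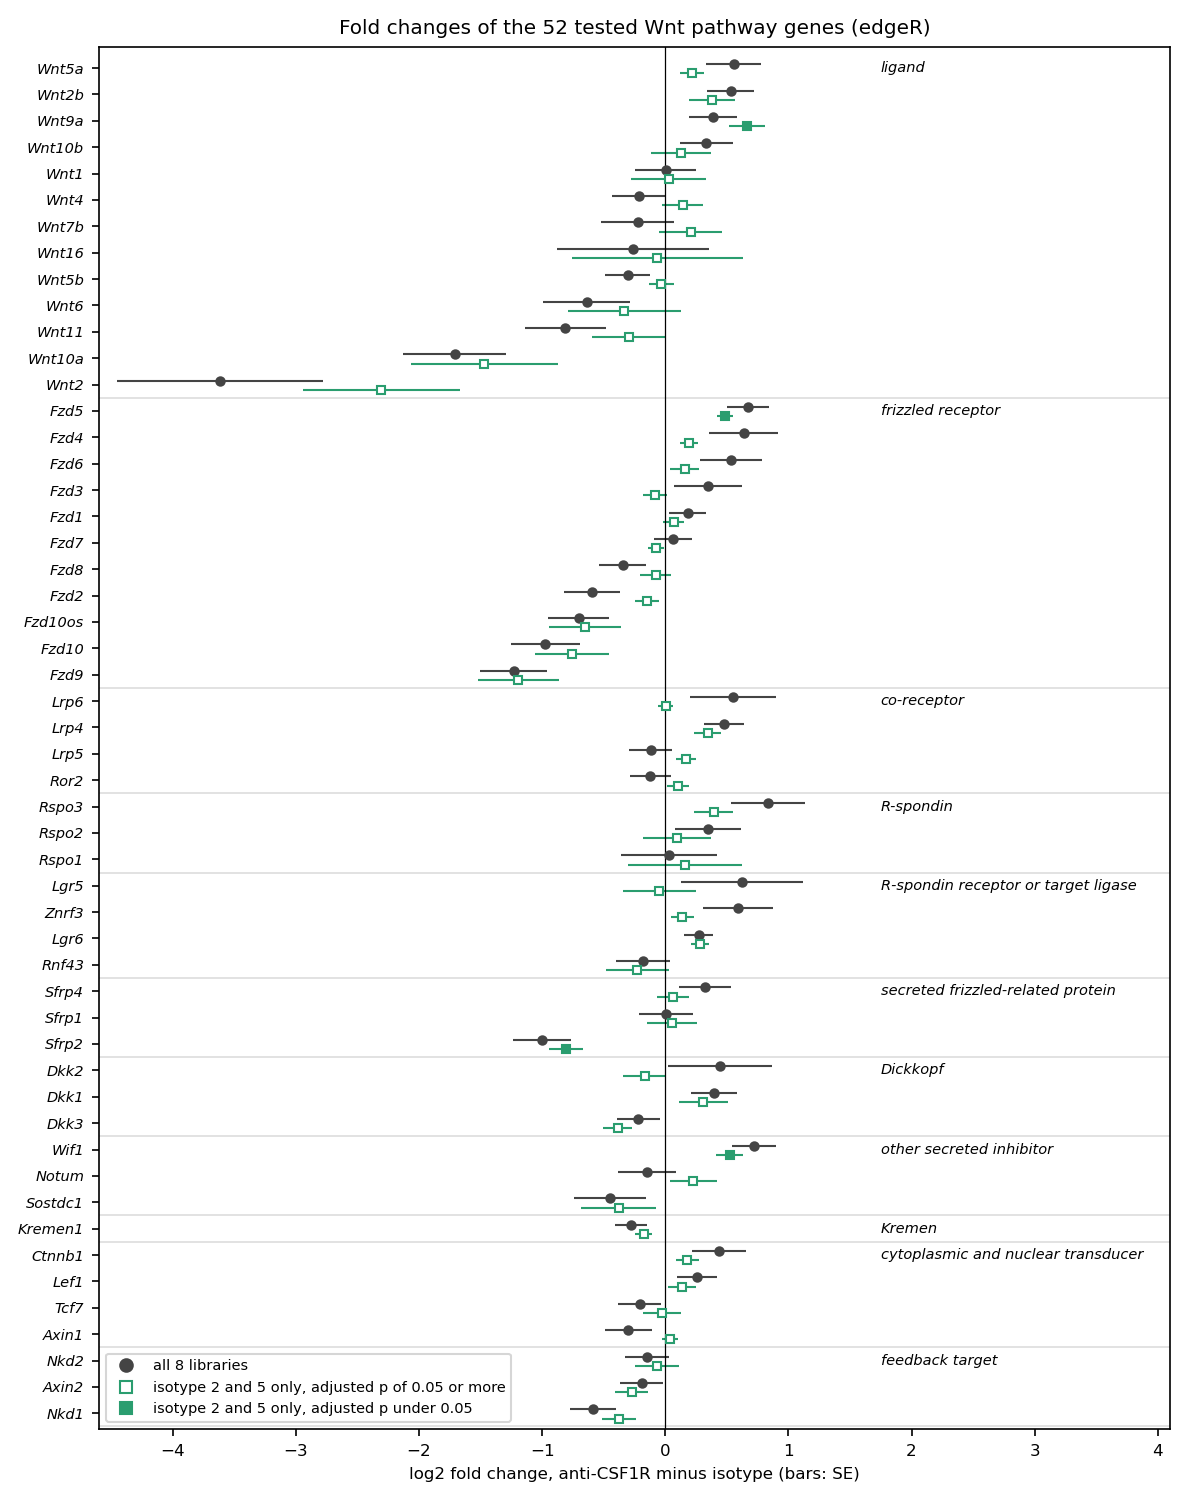
Log2 fold change (anti-CSF1R minus isotype, bars SE) of the 52 tested Wnt signalling genes by class, with all 8 libraries (grey circles) and with isotype 2 and 5 as the only controls (green squares, filled where the edgeR adjusted p was under 0.05). The filled squares are Wnt9a, Fzd5, Wif1 and Sfrp2; Lrp6 moves from 0.55 to 0.0025 between the comparisons.

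Genes of the pathway outside the rule gave the same count on all libraries. Of 34 genes of Wnt secretion, transduction and planar polarity, 0 passed in edgeR, against 0.846% of all genes, and 0 by DESeq2. At an unadjusted p under 0.05 there were 2 of the 34 (5.88%), against 17.9% of all genes. Every anti-CSF1R library was higher for 6 of the 34 (17.6%), against 6.61%, and lower for 0, against 8.34%. The median log2 change was 0.14, against 0.03 over all genes tested. The smallest p-values were those of Ror1, a receptor of Wnt5a, and Pygo1, a nuclear partner of β-catenin, with 0.84 ± 0.33 and 0.64 ± 0.26 (edgeR adjusted p = 0.278 for both). They were followed by Pygo2 (-0.52 ± 0.23) and Btrc (0.31 ± 0.14), the F-box protein that marks β-catenin for destruction, with the same adjusted p of 0.278. All 4 values were smaller against isotype 2 and 5 alone, where Ror1 had 0.35, Pygo1 0.24, Pygo2 -0.06 and Btrc 0.16. With the offset Pygo1 had 0.10 and Btrc -0.42. Sost, the gene of the osteocyte inhibitor sclerostin, had the highest CPM, 613 ± 148 with isotype and 639 ± 88.0 with anti-CSF1R (0.06 ± 0.21, edgeR adjusted p = 0.847, and 0.13 against isotype 2 and 5 alone). Of 14 other target genes, 0 passed on all libraries in edgeR and 0 by DESeq2. There were 2 at an unadjusted p under 0.05 (14.3%, against 17.9% of all genes) and 2 higher in every anti-CSF1R library (14.3%, against 6.61%), and the median log2 change was 0.07. Fgf18, Bambi, Enc1 and Ccn4 had -1.47 ± 0.51, -0.65 ± 0.26, -0.38 ± 0.18 and 0.68 ± 0.36 (edgeR adjusted p = 0.263, 0.278, 0.282 and 0.293). Against isotype 2 and 5 alone they had -0.82, -0.21, -0.49 and 0.13, and Bambi had -1.36 with the offset. Gja1, the gap junction gene of osteoblasts, stood at 656 ± 299 and 972 ± 35.0 CPM (0.57 ± 0.31, edgeR adjusted p = 0.295). Isotype 3 and 4 held 429 and 367 CPM of it, below the other 6 libraries, and the value was 0.085 against isotype 2 and 5 alone. Against isotype 2 and 5 alone 1 gene of each list was higher, where 0.679% of all genes were, Porcn and the cell cycle gene Ccnd1, the latter named after its values were seen. Ccnd1 had 0.33 (edgeR adjusted p = 0.0182) against 0.02 on all libraries (0.938), and adjusted p-values spanned 0.0182 to 0.993 over 16 alternatives.

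The controls themselves differed for many of these genes, and the signed difference went with GC content. Across the 51 tested Wnt genes with a transcript, the log2 difference of isotype 3 and 4 from isotype 2 and 5 had a Spearman correlation with GC content of 0.672, and 0.689 across all 16005 tested genes with a value. Genes are not independent replicates, and these libraries are shared by every point. Of 15 genes under 50% GC, 13 were lower in isotype 3 and 4, with a median log2 difference of -0.75. Of 19 genes at 55% GC or more, 16 were higher, with a median of 0.37. Lrp6 and Dkk2, at 46.0% and 45.7% GC, differed by -1.42 and -1.43, and Fzd2, at 56.6% GC, by 0.78. Of the 4 genes that passed against isotype 2 and 5 alone, Wif1 and Fzd5 had lower means in isotype 3 and 4 (-0.41 for both). Wnt9a and Sfrp2 had higher means (0.50 and 0.29). For Sfrp2 only isotype 4 was higher (251 CPM), and isotype 3 was the lowest control (128 CPM).

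**Figure D4:**
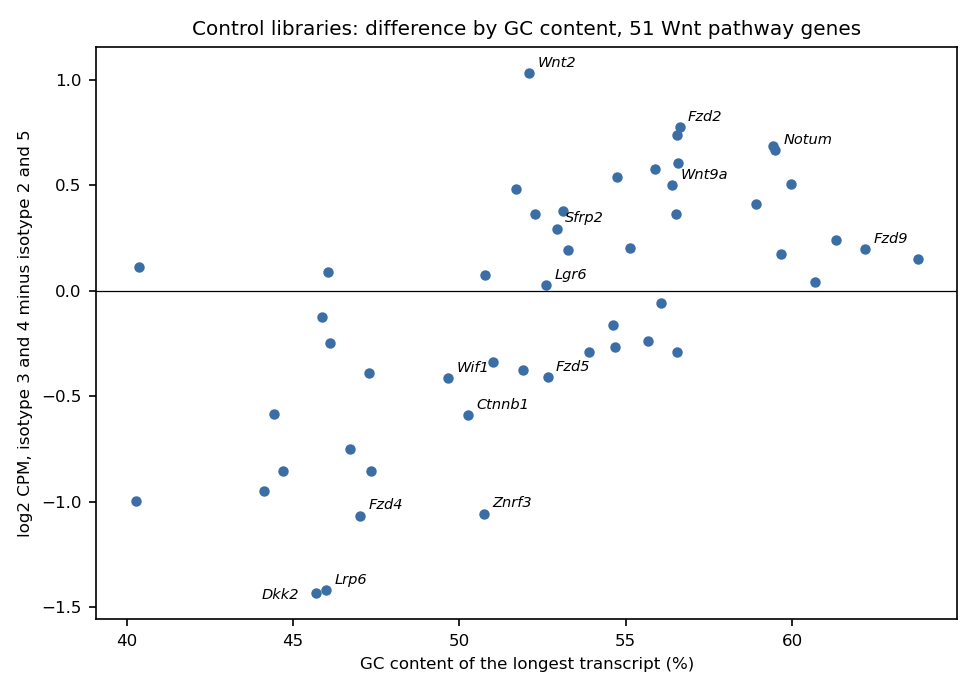
Log2 CPM (0.5 added to each CPM) of isotype 3 and 4 minus that of isotype 2 and 5 against the GC content of the longest transcript; each point is 1 of 51 tested Wnt signalling genes. Points rise from Dkk2 and Lrp6 near -1.4 at about 46% GC to Fzd2 at 0.78 and 56.6% GC, a Spearman correlation of 0.672.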

How the data were processed

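The data are bulk RNA-seq of parietal bone, 8 libraries. The values are raw counts per gene symbol in 1 table, as deposited by the authors. STAR 2.7.10b and featureCounts 1.6.3, with builds GRCm38 and GRCm39, appear in the submitters' processing notes without a stated role. The annotation, strand setting and treatment of multi-mapping reads: not given in the sources used here. Between 82.8% and 84.7% of counts from 1 to 10 were even, the pattern of counting each mate of a read pair, so the precision is lower than the totals alone would give. Pairs of libraries in a group differed by at least 8.74 times counting noise (for independent counts), so none was a copy of another.

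Groups and library numbers came from the sample titles. edgeR 4.0.16 in R 4.3.3 was run on the whole table (filterByExpr, TMM factors, robust quasi-likelihood F-test, Benjamini-Hochberg threshold 0.05) and tested on simulated data. The same table was run with DESeq2 1.42.0 and limma-voom 3.58.1, and with RLE factors, other filters, halved counts, each library left out, isotype 2 and 5 only, and a GC and length offset (natural splines, 5 degrees of freedom each, longest GENCODE M21 transcript, 94.0% of tested genes). The Wnt genes, gene lists, alternatives and the rule for named genes were chosen with earlier results of these data known. That rule names Wif1, Axin2, genes called on all libraries, with isotype 2 and 5 only or with the offset, genes whose groups do not overlap, and in each class the 2 smallest p-values and 2 highest CPM. For each further pathway list it names 4 smallest p-values and the highest CPM. It gave 30 of the 63 genes. Other genes named for a level or as the end of a range were picked after their values were seen.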

Additional observations from a re-analysis of the deposited data

Results flagged for a closer look

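Within a group of 4 libraries, 6 values lay far from the other 3 by Dixon's criterion, out of 126 groups examined, where chance gives about 1 in 20. Among the Wnt genes these were the high Fzd6 value in anti-CSF1R 10 (36.8 CPM), the high Fzd7 value in anti-CSF1R 9 (38.1 CPM), the high Wnt10b value in isotype 5 (119 CPM), the high Wnt2 value in anti-CSF1R 10 (0.132 CPM) and the low Wnt10a value in anti-CSF1R 9 (0.0288 CPM). The last 2 rest on 8 and 2 counts. The summed osteoclast markers were low in anti-CSF1R 10 (2044 CPM).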

How the results depend on the processing

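On all 8 libraries edgeR called 0 Wnt genes in either direction, and 144 genes in all. DESeq2 called 2 Wnt genes higher and 4 lower (734 genes), isotype 2 and 5 only gave 3 higher and 1 lower (536 genes), and the GC and length offset gave 3 higher (452 genes). Leaving out 1 library gave 0 Wnt genes higher, 0 to 1 lower and 0 to 260 genes in all. These were 260 without isotype 2, 35 without isotype 4, 234 without isotype 5, and 0, 0, 4 and 14 without anti-CSF1R 7, 8, 9 and 10. At an unadjusted p under 0.05, edgeR gave 1903 genes without anti-CSF1R 7 and 1597 without 8. RLE factors, limma-voom, halved counts and the other filters on low counts gave 0 Wnt genes. Of 635 fold changes of the named genes compared, 610 kept their direction and side of the threshold, 14 passed it and 11 turned. The values that turned were Lrp5 (0.17) and Notum (0.23) with isotype 2 and 5 only, and Tcf7 (0.020), Nkd2 (0.014), Wnt5b (0.052), Notum (0.24), Sfrp4 (-0.042) and Btrc (-0.42) with the offset. Notum ranged from -0.31 to 0.025 with 1 library left out, turning without isotype 3, and Sost without isotype 2 (-0.12) and without anti-CSF1R 9 (-0.00018). The cause was not tested. No paired analysis was possible because the library numbers are not shared between the groups.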
